A study of Mus musculus with 11 samples.

Results

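Injury-profile nuclei of the mouse trigeminal ganglion after facial skin cuts were 124 of the 8660 nuclei in the facial-cuts library, and 124 of 40359 nuclei in the 8 count tables of the series. They were selected on measured values: a nucleus belonged to them when 6 injury genes (Atf3, Sema6a, Sprr1a, Itgb6, Flrt3 and Gadd45a) had 4 or more unique molecular identifiers (UMIs, counts of captured transcripts) in sum and at least 2 of the 6 were detected. The 6 genes are therefore left out of every result. The reference was the 6846 nuclei of the same library with 0 UMIs of all 6, from which 10 nuclei per selected nucleus were matched on total UMIs (1240 nuclei). The remaining 1690 nuclei, with some UMIs of the 6 genes but too few, entered neither group.

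The facial-cuts mice were C57BL animals (C57BL/6NCrl in the study's methods), more than 6 weeks old, that received 3 cuts on each cheek and 2 on the forehead, and their ganglia were taken 2 days later. The series also holds uninjured C57BL controls (1 10x library and 4 Drop-seq libraries in 1 table), C57BL mice with an infraorbital nerve transection (IOT, a cut of the infraorbital nerve on 1 side, labelled as spared nerve injury) sampled at day 2, day 7, day 21 and day 75, and mice of an FVBN/C57BL/129 mixed background with skin lesions from chronic scratching. The scratching mice carried 1 copy each of a Fos-tTA and a tetO-mCherry-2A-Gnaq transgene, in which Fos-dependent tTA drives a constitutively active mutant of Gnaq. All groups were older than 6 weeks, sexes were pooled, and neuronal nuclei were enriched with an antibody to NeuN. Each injury is 1 library of ganglia pooled from several animals, and the 4 Drop-seq control libraries are pooled in 1 table, so the differences below have no replicate check. Intervals are 95% and cover counting error only.

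Trigeminal sensory neurons have their cell bodies in the ganglion and send axons to the skin of the face. When such an axon is severed, the cell body is known to switch on transcription factors such as Atf3, Sox11 and Jun, peptides such as galanin, and growth genes, and to lower ion channels and receptors that serve sensation.

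The selected nuclei were 1.43% (1.19 to 1.70%, exact binomial) of the facial-cuts library. The same rule took 0.343% (0.192 to 0.566%) of nuclei in the 10x control and 0.409% in the Drop-seq control, 3.54% after scratch lesions, and 14%, 7.91%, 6.18% and 4.71% at days 2, 7, 21 and 75 after IOT. Sprr1a is not listed in the 10x control table, which leaves 5 genes there. A deep nucleus passes a UMI threshold more easily, and the median depth differed between the libraries, from 1747 UMIs at IOT day 7 and 1928 after facial cuts to 4178 at IOT day 75. With each nucleus thinned to 2000 UMIs, and the 4548 shallower facial-cuts nuclei left out, 44 of 4112 nuclei passed after facial cuts (1.07%, 0.779 to 1.43%). At that depth 1 of 3900 nuclei passed in the 10x control (0.0256%, 0.000649 to 0.143%), and the share was 9.26% at IOT day 2, 8.64% at day 7, 3.91% at day 21, 1.71% at day 75 and 2.8% after scratch lesions. The facial-cuts interval lay above that of the 10x control at both depths, and below those of IOT days 2, 7 and 21 and of scratch lesions. Below that of IOT day 75 it lay only at the deposited depth, since the thinned intervals overlapped (1.31 to 2.18% at day 75). With 1 library per condition, these differences were not tested.

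**Figure D1:**
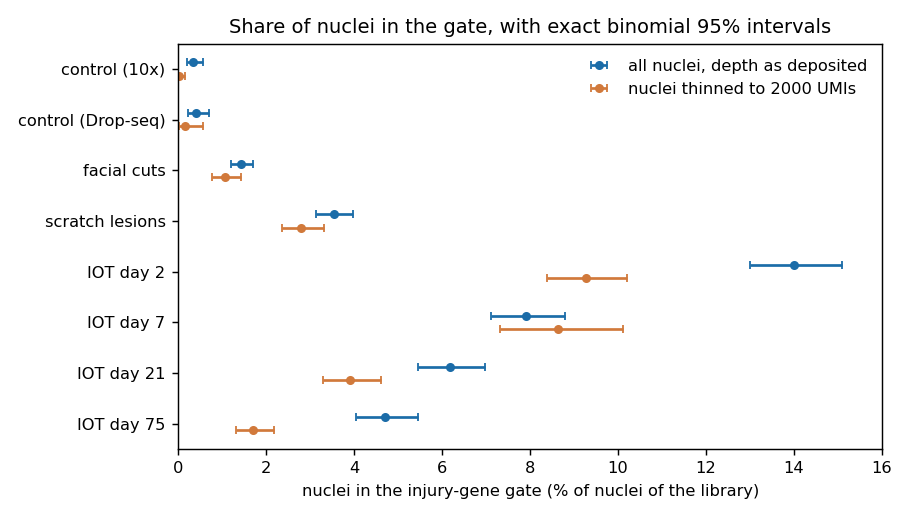
Share of nuclei that passed the 6-gene rule (x axis, % of the nuclei of a library) in each of 8 count tables, with all nuclei at their deposited depth (blue) and after thinning to 2000 UMIs (orange); bars are exact binomial 95% intervals. Facial cuts (1.43% and 1.07%) sit between the controls and the other injuries.

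Within the 124 nuclei, the summed UMIs of the 6 genes had a median of 6 and reached 32. Only 22 nuclei held exactly 2 of the genes, 45 held 3, 40 held 4, 13 held 5 and 4 held all 6. Sema6a was detected in 96 nuclei, Atf3 in 94, Flrt3 in 84, Gadd45a in 75, Sprr1a in 51 and Itgb6 in 28. These values chose the nuclei and are given as a description. Selected nuclei had 935 to 12964 UMIs with a median of 3025, against 3018 in the matched nuclei. They hold 493608 UMIs in sum, and the matched nuclei 4770855, so a gene at 20 CPM (UMIs of a gene scaled to 1000000 UMIs of its group) rests on about 10 UMIs in the selected nuclei. Barcodes shared with facial cuts numbered 38 to 92 in the other 10x libraries.

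Of 4963 genes at 50 CPM or more in the higher group, 146 were at least 2-fold higher in the selected nuclei (2.94%) and 107 at least 2-fold lower (2.16%), with a median log2 ratio over all of them of 0.00. The ratios come from the contrast that chose the nuclei, and their call is a size of change, with no test. Several of the 24 genes with the largest ratios overlap another annotated gene on the same strand (Glis3, Adam8, Chrna7, Kcnt2, Kcnq5, 4930555F03Rik and Mrgpra2b). How reads were divided there was not examined, so their counts are uncertain.

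**Figure D2:**
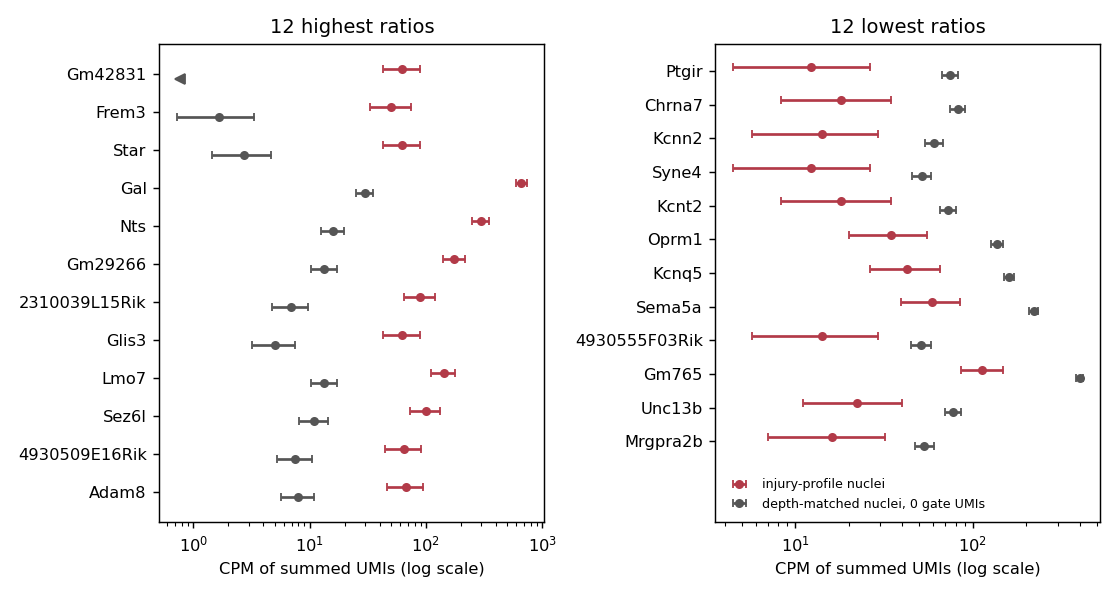
Levels (x axis, CPM of summed UMIs, log scale) of the 12 genes with the highest and the 12 with the lowest ratio in facial cuts, in injury-profile nuclei (red, n = 124 nuclei) and depth-matched nuclei (grey, n = 1240 nuclei); bars are exact Poisson 95% intervals and the arrow is the upper limit of a gene with 0 UMIs. The intervals of the 2 groups do not overlap for any of the 24 genes, which were picked as the extremes of this contrast. That separation follows from the choice and is no further evidence.

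Gal, which encodes the neuropeptide galanin and is at chr19:3409915-3414544 (mm10, minus strand), was at 662 CPM (593 to 738) in the selected nuclei and 29.8 CPM (25.1 to 35.1) in the matched nuclei, a 22.3-fold difference (18.2 to 27.3). It was found in 59 of 124 nuclei, and the nucleus with the most held 9.48% of its 327 UMIs. Nts, the precursor of neurotensin (chr10:102481756-102490486, minus strand), was at 296 CPM against 15.9 CPM, 18.6-fold (14 to 24.8), in 33 nuclei. Neither peptide was detected in most selected nuclei at this depth, which does not show that they lack it. With nuclei thinned to 1502 UMIs, Gal was detected in 35.1% of 111 selected and 3.78% of 1110 matched nuclei, and Nts in 15.3% and 1.89%. Adcyap1, the precursor of the peptide PACAP, was at 245 CPM against 44.9 CPM, 5.46-fold (4.34 to 6.86). Npy, neuropeptide Y, had 11 UMIs in 6 selected nuclei and 2 UMIs in the matched nuclei. The constitutive nociceptor peptide Calca, which encodes CGRP, went the other way: 701 CPM in the selected nuclei and 1485 CPM in the matched nuclei, 2.12-fold lower (1.90 to 2.37). Against 0-UMI nuclei of the 10x control in place of those of facial cuts, Calca turned the other way (log2 ratio of 0.61). Tac1, the substance P precursor, was at 192 CPM against 368 CPM, and Nmb, neuromedin B, at 42.5 CPM against 122 CPM. In all, 5 of 10 neuropeptide genes at 20 CPM or more were at least 2-fold higher (Gal, Npy, Nts, Adcyap1 and Vgf) and 2 at least 2-fold lower (Calca and Nmb). At that lower level, 4.13% of all genes were higher and 3.5% lower by as much. Gal, Npy and Nts are also genes the study names as induced in these samples, so this count is no independent evidence.

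The promoters of Gal and Nts, the peptide genes among the 12 highest ratios, are shown with the 2 motifs that were searched, since Atf3 and Jun belong to a family of factors that binds such sites. The windows run from 250 bases before to 50 bases after the start site (RefSeq, GRCm38.p6), and capitals mark a motif.
Nts, chr10:102490369-102490668, minus strand: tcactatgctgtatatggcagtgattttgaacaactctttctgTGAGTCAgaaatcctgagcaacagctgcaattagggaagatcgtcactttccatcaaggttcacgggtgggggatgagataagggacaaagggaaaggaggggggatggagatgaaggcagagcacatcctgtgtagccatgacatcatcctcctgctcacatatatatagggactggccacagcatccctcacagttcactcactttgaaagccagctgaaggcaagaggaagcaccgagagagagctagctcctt
Gal, chr19:3414495-3414794, minus strand: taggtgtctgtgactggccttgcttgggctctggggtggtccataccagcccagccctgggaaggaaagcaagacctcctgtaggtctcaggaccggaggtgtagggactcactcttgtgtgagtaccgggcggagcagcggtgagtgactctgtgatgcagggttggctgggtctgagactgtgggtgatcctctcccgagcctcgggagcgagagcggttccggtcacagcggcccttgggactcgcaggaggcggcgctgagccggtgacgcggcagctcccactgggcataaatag
The Nts window held 1 TGANTCA (the AP-1 motif) 207 bases upstream of the start site, and the Gal window held neither TGANTCA nor TGACGTCA (the CRE motif). Both motifs read the same on the other strand, and neither contains the other. The table had 10 promoters of 9 of the 12 genes, of which 1 held TGANTCA and 0 held TGACGTCA. Of 32851 promoters in the table, 7.81% held the former and 1.79% the latter. Letters in a window say nothing about whether a factor was bound.

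The remaining genes of the 12 highest ratios were Gm42831, Frem3, Star, Gm29266, 2310039L15Rik, Glis3, Lmo7, Sez6l, 4930509E16Rik and Adam8. Gm42831, a transcript with no entry of that name in GENCODE vM21, had 31 UMIs in 22 selected nuclei and 0 UMIs in 1240 matched nuclei. With a floor of 3 counts in place of 0 over the matched group it was 99.9-fold higher. The lower limit of the exact interval, which holds the counting error of both groups, was 76.5-fold. Frem3, an extracellular matrix protein (chr8:80611080-80695356, plus strand), was at 50.6 CPM against 1.68 CPM, 30.2-fold (13.2 to 77.5). Star, which carries cholesterol into mitochondria for steroid synthesis, was at 62.8 CPM against 2.72 CPM. Glis3, a zinc finger transcription factor, was at 62.8 CPM against 5.03 CPM and Lmo7, an actin-associated LIM domain protein, at 142 CPM against 13.4 CPM. Adam8, a membrane metalloprotease, was at 66.9 CPM against 7.97 CPM. Gm29266, a lincRNA, was at 176 CPM against 13.4 CPM. 2310039L15Rik stood apart: 79.5% of its 44 UMIs came from 1 nucleus, and without that nucleus its log2 ratio went from 3.69 to 1.42. When each gene's top nucleus was left out, 101 genes in place of 146 were at least 2-fold higher and 173 in place of 107 at least 2-fold lower. Leaving out UMIs of selected nuclei only lowers every ratio by construction. That setting was added after the data were seen.

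Genes linked to axon regeneration were higher in 13 of 25 measured members and lower in 1, with a median log2 ratio of 1.21 against 0.00 for all genes at 20 CPM or more. Of all those genes, 4.13% were at least 2-fold higher and 3.5% lower. Sox11, a transcription factor of embryonic and regenerating neurons (chr12:27334264-27342574, minus strand), was at 466 CPM (408 to 530.2) against 67.1 CPM (59.9 to 74.8), 6.95-fold (5.84 to 8.26), and was detected in 89 of 124 nuclei. Jun, a partner of Atf3, was at 371 CPM against 123 CPM, 3.01-fold (2.53 to 3.56). Csf1, a cytokine by which injured neurons signal to microglia and macrophages, had 18 UMIs in 16 nuclei and was at 36.5 CPM against 5.03 CPM, 7.25-fold (3.71 to 13.9). Klf6, Stmn4, Vgf, Plaur, Ecel1, Gpr151, Itga7, Cd44, Cacna2d1 and Adcyap1 were the others that were higher. Ecel1, an endopeptidase, had 14 UMIs against 3. Gpr151, an orphan receptor, had 10 against 0, which is 32.2-fold with the same floor and 21.7-fold at the lower limit of the interval. Ngfr, the p75 neurotrophin receptor, was the 1 member that was lower, at 310 CPM against 651 CPM, and against the 10x control it too turned the other way (log2 ratio of 0.39). Gap43, a growth cone protein, was at 439.6 CPM against 345 CPM and Stat3 at 245 CPM against 242 CPM, so neither reached 2-fold. Of the genes that the study names as induced by injury, 11 of 11 were at least 2-fold higher, including Myo10, an unconventional myosin (146 CPM against 31 CPM), Mmp16, a membrane metalloprotease (519 CPM against 152 CPM) and Pou2f1, a transcription factor (129.7 CPM against 49.7 CPM). That list was drawn from these samples and is no independent evidence of a direction. The regeneration list is not independent either: it shares Sox11, Csf1 and Itga7 with it, and its members were chosen with earlier results of these data known.

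Integrin and matrix genes were higher in 6 of 18 members and lower in 0: Itga7 (387 CPM against 98.9 CPM), the laminin receptor subunit, Frem3, Mmp16, Ecel1, Plaur, the urokinase receptor, and Pappa, a secreted protease. Among 29 cytoskeleton genes 6 were higher (Stmn4, Tubb6, Myo10, Palld, Lmo7 and Cap2) and 1 lower (Shtn1, 44.6 CPM against 89.7 CPM). Tubb6, a beta-tubulin, was at 28.4 CPM against 2.72 CPM. In stress and cell death genes, 3 of 16 were higher and 0 lower. Cdkn1a, the cell cycle inhibitor p21, was at 97.2 CPM against 24.1 CPM, 4.03-fold (2.82 to 5.70), Hrk, a pro-apoptotic BH3-only protein, at 20.3 CPM against 2.93 CPM, and the phosphatase gene Dusp1 at 56.7 CPM against 23.7 CPM. The survival gene Bcl2 was at 58.8 CPM against 105 CPM. Tnfrsf12a, the receptor of the cytokine TWEAK, was at 54.7 CPM against 12.4 CPM, and with Csf1 it made 2 of 16 cytokine and growth factor genes that were higher. Of 4 immediate early genes with 20 CPM or more, Jun alone was at least 2-fold higher. For these counts, the share over all genes at 20 CPM or more was 4.13% higher and 3.5% lower. The 1 lower cytoskeleton gene of 29 is near that share.

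Ion channels were mostly at or below the level of the matched nuclei. Of 34 potassium channel genes, 8 were at least 2-fold lower and 0 higher. Among all genes at 20 CPM or more, 3.5% were lower and 4.13% higher by as much. Kcnq5, a subunit of the M current, was at 42.5 CPM (26.3 to 65) against 159.7 CPM (149 to 171), 3.75-fold lower (2.44 to 6.10). Kcnn2, a calcium-activated channel, was at 14.2 CPM against 60.8 CPM, Kcnt2, a sodium-activated channel, at 18.2 CPM against 72.7 CPM, and Kcna4 at 14.2 CPM against 45.3 CPM. Kcnb2, the most abundant of the lower ones, was at 756 CPM against 1545 CPM. Kcnq3, another M current subunit, was at 387 CPM against 224 CPM, 1.73-fold (1.48 to 2.02), under the 2-fold line but in the other direction. Of 13 sodium channel genes, 3 were lower and 0 higher. Scn10a, the nociceptor channel Nav1.8, was at 205 CPM (167 to 249) against 552 CPM (531 to 573), 2.70-fold lower (2.21 to 3.32), and Scn11a, or Nav1.9, was at 50.6 CPM against 106 CPM. Scn9a, or Nav1.7, was at 480.1 CPM against 717 CPM. The calcium channel list split. Cacna2d1, an alpha2delta subunit that binds gabapentin (chr5:15934691-16374511, plus strand), was at 1908 CPM (1788 to 2034) against 492 CPM (473 to 513), 3.88-fold (3.59 to 4.18). Another alpha2delta subunit, Cacna2d2, was at 30.4 CPM against 83.4 CPM. Cacna2d1 was detected in 118 of 124 selected nuclei and was the most widely detected of the higher genes named here.

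Receptors followed the channels. Oprm1, the mu opioid receptor (chr10:6758506-7038198, plus strand), was at 34.4 CPM (20.1 to 55.1) against 136 CPM (126 to 147), 3.94-fold lower (2.44 to 6.81). Grm4 and Grm8, metabotropic glutamate receptors, and Chrm2, a muscarinic receptor, also passed 2-fold, so that 4 of 14 inhibitory receptor genes were lower and 0 higher. Ptgir, the prostacyclin receptor, had the lowest ratio, with 6 UMIs in the selected nuclei (12.2 CPM) against 74.4 CPM. Chrna7, a nicotinic receptor subunit, was at 18.2 CPM against 82.2 CPM. Of 19 sensory transduction genes 6 were lower (Trpm2, Trpm8, Trpa1, Htr3a, Mrgpra2b and Lpar3). Trpv2 was higher, at 68.9 CPM against 34.4 CPM, at the 2-fold line. Mrgpra2b belongs to a family with near-identical copies, so its counts are uncertain. Piezo2, the channel of light touch, was at 928 CPM against 1070.2 CPM, 0.867 of the matched level (0.786 to 0.954). Of the genes that the study names as lowered by injury, 5 of 13 were at least 2-fold lower (Grik1, Scn10a, Calca, Kcnb2 and Oprm1) and 0 higher. That list also comes from these samples. Snap25, a synaptic vesicle fusion protein in that list, was at 1218 CPM against 1206 CPM. Synaptic release genes as a list were level, with 17 above the matched nuclei and 16 below and a median log2 ratio of 0.01. Of these 33, 2 were at least 2-fold lower, Unc13b and Cplx2 (64.8 CPM against 206 CPM). Over all genes at 20 CPM or more, 3.5% were lower and 4.13% higher by as much. In guidance and adhesion genes 5 of 38 were lower, Sema5a among them (58.8 CPM against 219.9 CPM). Sema3c and Plxna4 were higher, and the median log2 ratio of that list was -0.01.

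**Figure D3:**
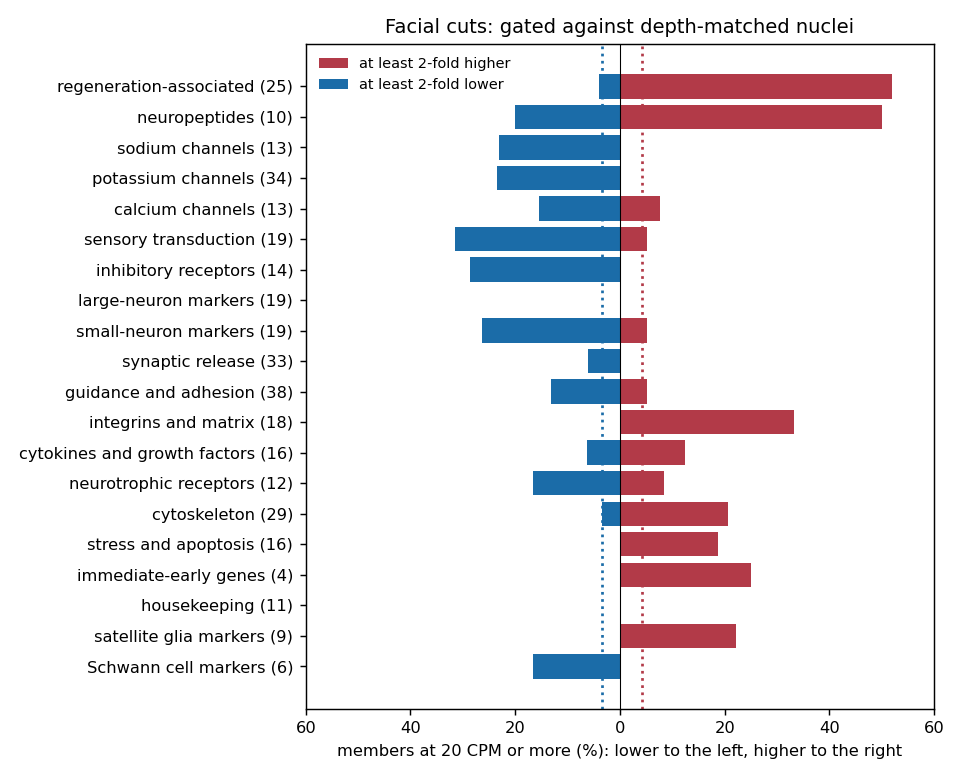
Percentage of the members of the plotted gene lists (those the study named are left out) at 20 CPM or more that were at least 2-fold higher (right, red) or lower (left, blue) in injury-profile nuclei than in depth-matched nuclei of facial cuts, with the number of members in parentheses; dotted lines are the percentages over all genes at that level (4.13% and 3.5%). Regeneration genes (13 of 25) and neuropeptides (5 of 10) reach furthest right of the lists plotted and sensory transduction genes (6 of 19) furthest left. The lists were chosen with earlier results of these data known. Plotted lists still hold genes the study named as induced: Gal, Npy and Nts among the neuropeptides, and Sox11, Csf1 and Itga7 among the regeneration genes. Adcyap1 and Vgf count in both of these lists, so the bars are not independent.

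All 7 markers of sensory neurons (Scn9a, Scn10a, Piezo2, Isl1, Pou4f1, Slc17a6 and Rbfox3) were detected in the selected nuclei, at 2411 CPM in sum against 3318 CPM. Genes of neuron classes were then compared. Genes of large neurons summed to 16049 CPM against 15658 CPM, and 0 of 19 members at 20 CPM or more passed 2-fold in either direction. Nefh and Nefm, neurofilament genes, were at 1534 CPM against 1182 CPM and 1526 CPM against 1242 CPM. S100b was at 731 CPM against 741 CPM. Genes of small neurons summed to 5727 CPM against 7394 CPM, with 5 of 19 lower (Scn10a, Scn11a, Trpm8, Calca and Grik1) and 1 higher (Adcyap1). The share over all genes at 20 CPM or more was 3.5% lower and 4.13% higher. Prdm12 (36.5 CPM against 99.4 CPM) and Bcl11b (22.3 CPM against 48.8 CPM), transcription factors of neuron identity, were at least 2-fold lower. Fewer nuclei of a class and less RNA per nucleus cannot be told apart in these sums. Ret, the receptor tyrosine kinase of the GDNF family, was at 1019 CPM against 693 CPM and its coreceptor Gfra1 at 423 CPM against 159.5 CPM.

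Markers of other cells were present in the selected nuclei. Satellite glia markers (11 of 11 with UMIs) summed to 2172 CPM against 1864 CPM, Schwann cell markers (12 of 12) to 1222 CPM against 978 CPM, fibroblast markers (10 of 10) to 197 CPM against 129.7 CPM, vascular markers (9 of 9) to 126 CPM against 113 CPM, leukocyte markers (8 of 11) to 79 CPM against 45.3 CPM, and red cell markers (4 of 5) to 64.8 CPM against 56.2 CPM. Cadm2 alone gave 808 CPM and 891 CPM of the satellite glia sums and was detected in 84.3% of matched nuclei. Of 9 satellite glia markers at 20 CPM or more, 7 were above the matched nuclei, with a median log2 ratio of 0.51. Of 6 Schwann cell markers at that level, 5 were above, with a median of 0.36. Ednrb and Sox10 were the 2 satellite glia genes past 2-fold, both higher, as were 4.13% of all genes at that level. Mitochondrial transcripts were 0.497% and 0.397% of UMIs. Without the 10% of nuclei richest in glial markers, 129 genes were at least 2-fold higher and 123 lower. The part of these transcripts in the other results was otherwise not tested. Housekeeping genes summed to 3778 CPM against 3787 CPM.

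The selected nuclei were not uniform. The 59 nuclei with Gal had a median of 2446 UMIs and the 65 without it 3693 UMIs. Gfra1 was detected in 37.3% of nuclei with Gal and 60% of nuclei without, and Nts in 15.3% and 36.9%. At 1502 UMIs, Gfra1 was found in 15.4% (5.86 to 30.5%) of 39 nuclei with Gal and in 38.9% (27.6 to 51.1%) of 72 without, and Nts in 10.3% (2.87 to 24.2%) and 18.1% (9.98 to 28.9%). These intervals overlapped for both genes, which does not show that the shares were equal. By summed UMIs, Gfra1 was at 332 CPM in nuclei with Gal and 488 CPM in nuclei without (ratio of 0.681, 0.502 to 0.916). In sums of UMIs, nuclei with Gal had more Lmo7 (239 CPM against 72.7 CPM), Itga7 (596 CPM against 239 CPM), Sox11 (679 CPM against 315 CPM), Cacna2d1 (2707 CPM against 1343 CPM) and Rgs4 (933 CPM against 481 CPM). Nuclei without Gal had more Nts (408 CPM against 137 CPM), Star (90 CPM against 24.4 CPM), Nefh (1851 CPM against 1085 CPM), Nefm (1865 CPM against 1046 CPM), Ntrk3 (865 CPM against 484 CPM), Pcdh7 (1149 CPM against 728 CPM) and Map2 (837 CPM against 430 CPM). Markers of large neurons did not all go one way: Ntng1 was at 298 CPM with Gal and 197 CPM without (ratio of 1.51, 1.04 to 2.21), and Ntrk2 at 191 CPM and 138 CPM (1.38, 0.863 to 2.20). Scn10a was at 239 CPM and 180 CPM, Piezo2 at 987 CPM and 886 CPM and Jun at 347 CPM and 388 CPM, with ratios whose intervals include 1. The split was made by a measured gene after the data were seen, and nuclei of 1 library are no replicates.

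Levels were also listed by the UMIs of the 6 genes that chose the nuclei, as a description only. Sox11 was at 371 CPM in the 56 nuclei with 4 to 5 UMIs of the 6, at 468 CPM in the 43 with 6 to 9 and at 633 CPM in the 25 with 10 or more. Nts was at 205, 294 and 459.9 CPM in the same order and Adcyap1 at 141, 271 and 391 CPM. Cacna2d1 was at 1667, 1985 and 2222 CPM. Other genes had no such order: Gal was at 366, 912 and 816 CPM, Myo10 at 78, 202 and 182 CPM and Lmo7 at 151, 109.7 and 174 CPM. Scn10a was at 190.1, 254 and 156 CPM and Calca at 799.6, 606 and 668 CPM. Just inside the threshold, the 37 nuclei with exactly 4 UMIs had Sox11 at 359.9 CPM, Gal at 359.9 CPM and Scn10a at 217 CPM. Just outside it, the 40 nuclei with 3 UMIs of at least 2 genes had Sox11 at 239.9 CPM, Gal at 174 CPM and Scn10a at 678 CPM. Calca was at 2657 CPM there and Oprm1 at 204 CPM, above the 1270.2 CPM and 131 CPM of all nuclei with 0 UMIs. A further 13 nuclei had 3 UMIs of 1 gene and 3 nuclei had 4 or more of 1 gene. Nuclei with 1 UMI were close to those with 0: Sox11 at 69.2 and 78.8 CPM, Gal at 43.1 and 48.1 CPM.

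**Figure D4:**
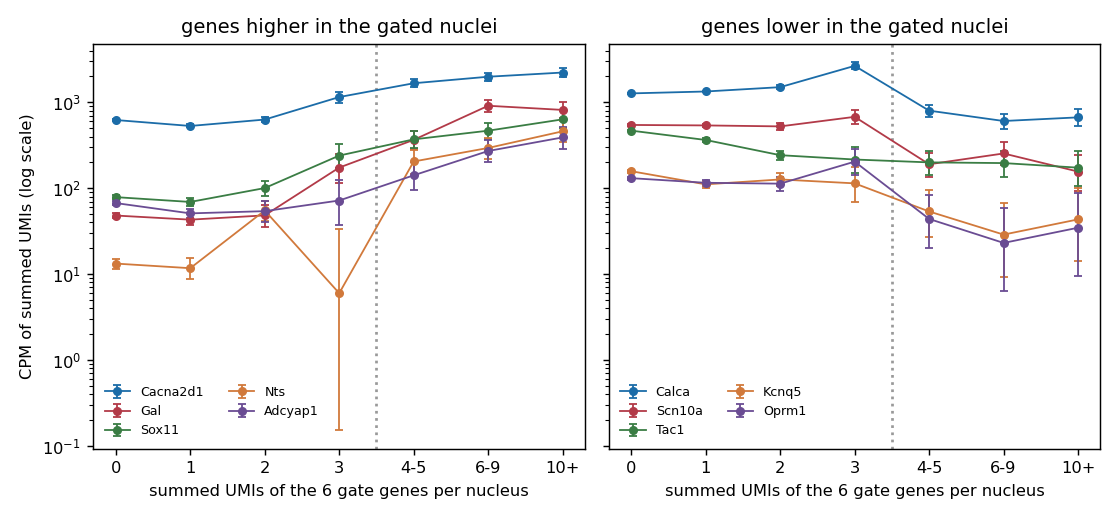
Level (y axis, CPM of summed UMIs, log scale) of 10 genes in facial-cuts nuclei grouped by the summed UMIs of the 6 selecting genes (x axis; the group of 3 holds nuclei with at least 2 genes, and groups from 4 up are the selected nuclei, right of the dotted line); bars are exact Poisson 95% intervals. Sox11 goes from 78.8 CPM at 0 UMIs to 633 CPM at 10 or more, and Scn10a from 545 CPM to 156 CPM.

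Gal also occurred outside the selection. In all 6846 facial-cuts nuclei with 0 UMIs of the 6 genes it was at 48.1 CPM (44.8 to 51.7), and in the 10x control at 21 CPM (18.5 to 23.8). At 1502 UMIs, 5.80% (5.13 to 6.52%) of those nuclei had a Gal UMI after facial cuts and 2.85% (2.31 to 3.48%) in the 10x control. The shares were 10.5% after scratch lesions, 5% at IOT day 2 and between 1.45% and 3.30% at IOT days 7, 21 and 75.

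The same rule was applied in the other libraries, and the genes called in facial cuts were looked up there. The share of all genes above or below the reference in those libraries is not given here. The 146 higher genes of facial cuts were above the reference in 144 cases after scratch lesions, in 144 at IOT day 2, in 140 at day 7, in 141 at day 21 and in 135 at day 75, with median log2 ratios of 1.21, 1.33, 1.41, 1.40 and 0.73. The 107 lower genes were below it in 103, 105, 106, 105 and 99 cases, with median log2 ratios of -0.67, -0.99, -1.58, -1.14 and -0.48. Fewer passed 2-fold in the same direction. In the same order of libraries, these were 88, 101, 99, 99 and 47 of the 146 higher genes. Of the 107 lower genes they were 27, 52, 81, 60 and 10. In the 15 nuclei that the rule took from the 10x control the medians were 0.36 and -0.47, and in the 13 from the Drop-seq control 1.04 and -1.27, over the 108 and 84 genes with a ratio there. Higher and lower genes kept their direction in 94 of 137 and 78 of 106 cases in the 10x control. In the Drop-seq control they did so in 83 of 108 and 79 of 84. Gal was at 7.17 CPM in those 15 nuclei (1 UMI), at 662 CPM after facial cuts, at 1711 CPM after scratch lesions and at 265, 365, 172 and 29.4 CPM at the 4 IOT days. Sox11 was at 86.1 CPM in the control nuclei, at 466 CPM after facial cuts, at 549 CPM after scratch lesions and at 538, 581, 705 and 268 CPM after IOT. Cacna2d1 was at 516, 1908 and 1734 CPM and at 4484, 3261, 4074 and 1361 CPM in the same order. Nts was at 115, 296 and 239 CPM and at 35.1, 238, 439.9 and 138 CPM. The 13 nuclei of the Drop-seq control had Gal at 305 CPM (17 UMIs) and Nts at 448 CPM (25 UMIs), so both peptides were also high in a few uninjured nuclei. Gal after facial cuts lay above the 4 IOT libraries, while Cacna2d1 lay below 3 of them. Depth was matched in facial cuts and the controls only. At IOT days 2, 7 and 21 there were fewer 0-UMI nuclei than 10 per selected nucleus and all of them were used, and at day 75 and after scratch lesions the deep ones ran short. The reference medians were 2892, 1654, 2831, 4155 and 2978 UMIs in these 5 libraries, against 4281, 2394, 3846, 6234 and 3724 in the selected nuclei.

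Whether the change in selected nuclei differed between facial cuts and IOT was tested over 10 sums, selected and reference nuclei of facial cuts and of 4 IOT libraries, with edgeR's quasi-likelihood interaction test and library as a block. The single facial-cuts library is assumed to vary as the IOT libraries do, whose spread holds their time differences, and 3 residual degrees of freedom remain. Of 15987 genes, 0 had a higher and 0 a lower effect after facial cuts at an adjusted p of 0.05 (0% in each direction), with 217 and 490 at an unadjusted p under 0.05. Together the latter are fewer than the share of 0.05 of all genes that would pass if none differed. DESeq2 also called 0 in each direction. This does not show that the changes were equal. Chl1, a neural adhesion molecule, was at 229 CPM against 218 CPM in the reference after facial cuts and at 451 against 139, 586 against 127, 656 against 152 and 217 against 112 CPM at the 4 IOT days (log2 difference of -1.82, edgeR adjusted p = 0.867, 0.00931 to 1 over the alternatives). Htr1f, a serotonin receptor and the target of a migraine drug, was at 60.8 against 85.7 CPM after facial cuts and at 605 against 225, 393 against 127, 578 against 183 and 269 against 137 CPM after IOT (log2 difference of -2.06, edgeR adjusted p = 0.614, 0.00931 to 1 over the alternatives). Folh1, Cttnbp2 and Pcdh15 had log2 differences of -2.37, -2.15 and -1.38, with edgeR adjusted p of 0.614, 0.695 and 0.867. Scratch lesions were not in this fit. There the log2 ratios were -0.86 for Folh1, 0.38 for Cttnbp2, 1.69 for Pcdh15, 0.33 for Htr1f and 0.70 for Chl1, against -0.72, -0.42, 1.53, -0.50 and 0.07 after facial cuts, so none of these differences from IOT is shown to be particular to facial cuts. Without IOT day 75, Chl1, Htr1f, Cttnbp2 and Car3 passed the threshold (edgeR adjusted p of 0.00931, 0.00931, 0.00931 and 0.0278). In the other direction, Asic2, an acid-sensing channel, was at 563 against 364 CPM after facial cuts and at 518 against 731, 422 against 636, 209.8 against 553 and 509 against 890.4 CPM after IOT (log2 difference of 1.30, edgeR adjusted p = 0.973, 0.0101 to 1 over the alternatives). Brinp3 was at 197 against 51.4 CPM after facial cuts, with log2 ratios of -0.20, -0.60, 1.01 and -0.40 at the 4 IOT days (log2 difference of 1.72, edgeR adjusted p = 0.973, 0.313 to 0.998 over the alternatives).

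**Figure D5:**
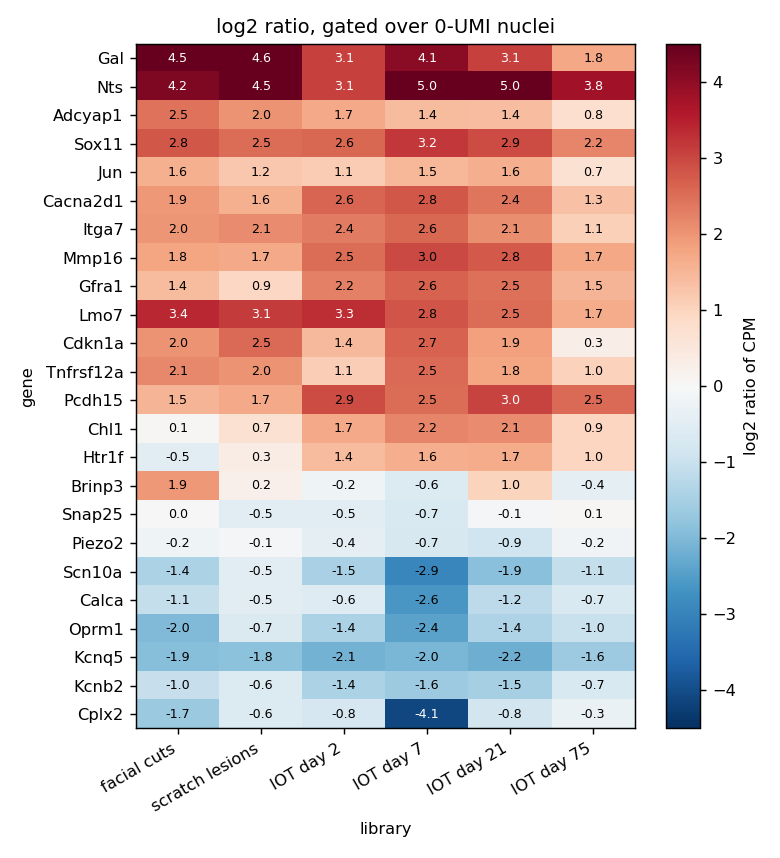
Log2 ratio of CPM in selected over reference nuclei (colour and number in each cell, red higher, blue lower) for 24 of the named genes (rows) in facial cuts, scratch lesions and 4 days after IOT (columns). Sox11 is between 2.21 and 3.17 in each of the 6 libraries, and Chl1 and Htr1f are near or below 0 after facial cuts (0.07 and -0.50) and between 0.95 and 2.21 at the 4 IOT days.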

How the data were processed

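Nuclei were profiled by 10x (version 2 chemistry) or Drop-seq. For the authors' tables, alignment was to a pre-mRNA version of mm10 that includes introns. Outlier nuclei and clusters of other cells were then dropped, and the deposited values are raw UMI counts per gene and nucleus. Tools listed in the submitters' processing notes are Seurat 2, STAR 2.5.3a, Cell Ranger 2.1.0 and bcl2fastq 2.17. Which annotation was used: not given in the sources used here. GENCODE vM21 held 96.1% of the 20585 facial-cuts symbols.

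Counts of selected and reference nuclei were summed per library and given as CPM, scaled to 1000000 UMIs. Nuclei were not treated as replicates, and no clustering was made. CPM have exact Poisson intervals, ratios exact conditional ones, and shares Clopper-Pearson ones. A ratio against 0 UMIs uses a floor of 3 counts over the group in place of 0, and this leaves out the counting error of the other group. The facial-cuts library holds 22003842 UMIs, with a median of 1928 UMIs and 1315 genes per nucleus. The study's methods give no doublet removal, and none was made for the main values. A score from simulated doublets served as an alternative.

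The interaction was fitted with edgeR 4.0.16 (TMM, filterByExpr, Benjamini-Hochberg, tested on simulated data) in R 4.3.3, and with DESeq2 1.42.0 as an alternative. Genes named were taken from a set made by rule, and not every gene of it is printed. The set holds the 12 highest and 12 lowest ratios at 50 CPM or more, and the genes the study names as induced, repressed or marking 2 injured states. It also holds up to 4 members of each other list at 20 CPM or more (the 2 highest and 2 lowest ratios). Its last part is the 8 smallest adjusted p of each direction of the interaction at 50 CPM or more in any sum. St6galnac5 and Ptprt, which came first in the higher direction, had log2 differences of 1.78 and 1.28. Genes named for a list's count, and class markers in the Gal split, were added after their values were seen. The members and lists were chosen with earlier results of these data known. The count over the list of identity transcription factors is not reported here.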

Additional observations from a re-analysis of the deposited data

How the results depend on the processing

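The share of selected nuclei moved with the rule: 1.89% at 3 UMIs and 2 genes, 0.785% at 6 UMIs and 2 genes, 1.18% at 4 UMIs and 3 genes, and 1.07% after thinning to 2000 UMIs, and it was 1.37% without the 5% of nuclei with the highest doublet score. Counts of genes at least 2-fold higher and lower (146 and 107) were 775 and 435 against nuclei of the 10x control, where libraries and groups cannot be told apart, 297 and 300 with nuclei thinned to 1502 UMIs and 297 and 283 with 8 UMIs and 3 genes, both of which leave fewer UMIs. They were 353 and 299 at 20 CPM and 74 and 57 at 100 CPM, where more or fewer genes are counted. Without depth matching, doublets or glia-rich nuclei they stayed within 1.5 times. Of 72 named genes past 2-fold, 72 kept their direction without depth matching, with 8 UMIs and 3 genes, without doublets, without glia-rich nuclei and without each gene's top nucleus, and 71 after thinning. Fewer stayed past 2-fold: 67, 67, 68, 67 and 69 in the same order, and 67 after thinning. For lower genes, leaving out the top nucleus lowers the ratio by construction, so their kept direction adds nothing. Against the 10x control, 68 of 70 kept their direction and 56 stayed past 2-fold. Calca (log2 ratio of 0.61) and Ngfr (0.39) reversed there, and the cause was not tested.

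The interaction gave 0 higher and 0 lower genes without TMM, without the filter, without depth matching, with 1 matched nucleus per selected nucleus (added after seeing the data), with scratch lesions added and with DESeq2. With 8 UMIs and 3 genes it gave 1 higher (Asic2, edgeR adjusted p = 0.0101) and 2 lower (Gabrg1 and Chl1, both 0.0318). Leaving out 1 IOT library gave 0 higher throughout, and 0 to 4 lower. The 4 were Car3, Cttnbp2, Chl1 and Htr1f, without day 75 (edgeR adjusted p of 0.0278, 0.00931, 0.00931 and 0.00931). No paired analysis was possible because each condition is 1 library and replicate numbers pair no animals. Depth limits genes below 20 CPM, which rest on fewer than 10 UMIs in the selected nuclei.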

Other observations

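Neurotrophic receptors and their sorting relatives split, with Gfra1 at least 2-fold higher and Ngfr and Sorl1 (119.5 CPM against 296 CPM) at least 2-fold lower among 12 members at 20 CPM or more. At that level, 4.13% of all genes were higher and 3.5% lower by as much. Sorcs1, a sorting receptor of the same family as Sorl1, was at 201 CPM against 109 CPM after facial cuts, 1.84-fold (1.47 to 2.29), and was lower in selected than in reference nuclei in 4 of 4 IOT libraries (edgeR interaction log2 difference of 1.11, adjusted p = 0.867).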
